A study of Urocitellus parryii with 3 samples.

Results

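miR-148a, miR-148b and miR-152 form a family of microRNAs (miRNAs) that share a seed, the short stretch near the 5′ end through which a miRNA pairs with messenger RNAs. They were followed over 3 stages of the year in liver RNA of a hibernator, the arctic ground squirrel Urocitellus parryii. The members were taken by name from the array files, as spots for miRNAs annotated mmu-miR-148a, mmu-miR-148b or mmu-miR-152, which gave 3 of the 567 mouse miRNA entries on each array. The stages were late torpor (written "late topor" in the labels), in which the animal is cold and its metabolism depressed, early arousal, in which it returns to a high body temperature, and post-reproduction, in the active season after breeding. No strain, allele, agent, age or sex is given in the labels, and total liver RNA from animals of the same stage was mixed in equal amounts into 1 pool, of a number of animals that the sources used here do not state. With 1 Cy3-labelled pool on 1 Agilent mouse miRNA array per stage, no difference between stages has a replicate check, no test was made, and stage, pool and array cannot be told apart.

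In mammals the family is known for repressing DNA methyltransferases, the enzymes that place methyl groups on DNA. miR-148a is also known as an abundant miRNA of hepatocytes that represses the LDL receptor, which takes up cholesterol-carrying lipoprotein from blood, and the cholesterol exporter ABCA1. miR-148b lies in an intron of the mouse gene Copz1 and miR-152 in an intron of its paralog Copz2, which encode subunits of the coat of transport vesicles, while miR-148a has a gene of its own between protein-coding genes.

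Each member had 2 probes of 10 spots, which differ by 1 base in the length of the target they cover. The targets of miR-148a lie on mouse chromosome 6 at 51219828 to 51219847, those of miR-148b on chromosome 15 at 103115619 to 103115637, and those of miR-152 on chromosome 11 at 96711757 to 96711773 (mm9, the build named in the file headers). The probes were designed on mouse, and how well they match the squirrel's RNA was not tested. Whether the probes of one member also bind another member was not tested either. Intensities are the deposited spot signals after subtraction of the spatial background. For differences between arrays, log2 intensities were scaled to the 75th percentile of the 250 probes detected on all 3 arrays, a level of 349 intensity units for the late torpor array, 350.4 for the early arousal array and 398 for the post-reproduction array. A miRNA with at least 1 probe detected on all arrays is called measured, which held for 135 mouse miRNAs including the 3 members. The brightness of a probe also depends on its sequence, so levels are compared between arrays for the same probe and not between members.

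On these arrays 5 of the 6 listed hepatocyte miRNAs were measured, and none of the 4 muscle and 4 neural miRNAs was. Of the muscle entries, miR-1, miR-133a and miR-133b were detected in late torpor, miR-1 and miR-133b in early arousal, and none in post-reproduction. The negative control spots had a median of 1.69, 1.36 and 1.21 intensity units in late torpor, early arousal and post-reproduction, with an SD of 4.13, 3.61 and 11.6 over 672 spots each. The probes of the 10 viral entries had a median of 1.36, 0.40 and 0.35 intensity units, and 2, 1 and 1 of these entries were detected on these arrays in the same order. mghv-miR-M1-2 was the brightest of them on each array and was measured with all 4 of its probes. The brightest of the 4 on each array had 26.5 intensity units in late torpor, 22.2 in early arousal and 26.6 in post-reproduction. In early arousal this was a different probe from that of the other arrays.

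The first question was how the family differs between late torpor and the season outside hibernation. miR-152 was 1.55-fold lower in late torpor, miR-148a was 1.30-fold higher and miR-148b was 1.18-fold higher. With the scaling used here, none of the 3 reached the rule of size, a difference of at least 1 on the log2 scale (2-fold) that is more than 2 times its standard error from spots and of one sign in each measured probe. Of all 135 measured mouse miRNAs, 2.22% did.

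The probe of miR-152 with a target of 16 bases averaged 14.6 ± 2.17 intensity units in late torpor, 15.5 ± 1.89 in early arousal and 26.8 ± 2.93 in post-reproduction (SD over 10, 10 and 9 kept spots). The probe with a target of 17 bases averaged 26.1 ± 3.21, 25.8 ± 1.91 and 44.1 ± 3.55 intensity units on the same arrays (SD over 10 spots each). With either probe the post-reproduction array was high and the 2 arrays from hibernation lay close together. These levels are dim. The 4 probes of the viral entry mghv-miR-M1-2 averaged 16.6 to 26.5 intensity units in late torpor. They averaged 11.4 to 22.2 in early arousal and 14.6 to 26.6 in post-reproduction. The negative control spots had an SD of 11.6 units in post-reproduction, against 4.13 in late torpor and 3.61 in early arousal. How much of the miR-152 signal is nonspecific was not tested. After scaling, the spots of the shorter target reached at most 5.17% of the scaling level in late torpor and 5.55% in early arousal, while the lowest of them in post-reproduction lay at 5.92%. For the longer target these values were 8.72% in late torpor, 8.21% in early arousal and 9.77% in post-reproduction. The spots of the hibernation arrays and of the post-reproduction array thus did not overlap for either probe. Here and below, spots are repeats on the same array. How many measured probes outside the family also had spots that did not overlap between arrays was not tested. Whether non-overlap sets the family apart can therefore not be said, and it is not used here as such a sign.

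The scaled log2 difference of miR-152, late torpor minus post-reproduction, was -0.63 ± 0.055 (SE from spots, here and below), with -0.69 ± 0.085 for the shorter target and -0.57 ± 0.070 for the longer one. The 95% interval of the 1.55-fold decrease was 1.44 to 1.67, which covers the spread of spots and not that of animals, pools or arrays. Ranked from the lowest, it held place 4 of the 135 measured miRNAs, whose median difference was 0.13. Among the 68 that were dimmer by mean level over the arrays, miR-152 also held place 4. The miRNAs ranked below it were thus all dim ones. Over the alternatives the difference of miR-152 stayed below 0, from -1.02 with the scaling on all probes without substitution of values at or below 0 (chosen after the data were seen), where it passed the rule of size, to -0.081 with normexp, a background model that adds an offset of 50 units. With that unsubstituted scaling, 7 of the 135 measured miRNAs passed the rule, and the median over all 135 was -0.26. Relative to the median, miR-152 was at -0.76 there, the same as with the scaling used here.

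miR-148a was detected in every kept spot of both probes. Its probe with a target of 19 bases averaged 846 ± 27.4 intensity units in late torpor, 672 ± 30.7 in early arousal and 731 ± 35.1 in post-reproduction (SD over 10 spots each). Its probe with a target of 20 bases averaged 1540.4 ± 41.3, 1142 ± 22.2 and 1384 ± 23.0 intensity units (SD over 10, 9 and 9 kept spots). Late torpor was the high array with both probes. Its scaled spots of the shorter target, 229% to 251% of the scaling level, did not overlap those of post-reproduction, 168% to 198%, nor did those of the longer target, 422% to 457% in late torpor and 338% to 355% in post-reproduction.

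The difference of miR-148a, late torpor minus post-reproduction, was 0.37 ± 0.015, with a 95% interval from spots of 1.27- to 1.32-fold. It held place 31 from the highest of the 135, so 30 measured miRNAs differed by more in that direction. Its size depended on the processing. It was 0.18 without scaling, 0.14 with strict detection (a probe counts where each kept spot is well above background), 0.052 with the scanner program's total signal per miRNA, scaled on the 75th percentile of these totals, and -0.018 with the unsubstituted scaling, in which the median of all measured miRNAs was -0.26.

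**Figure D1:**
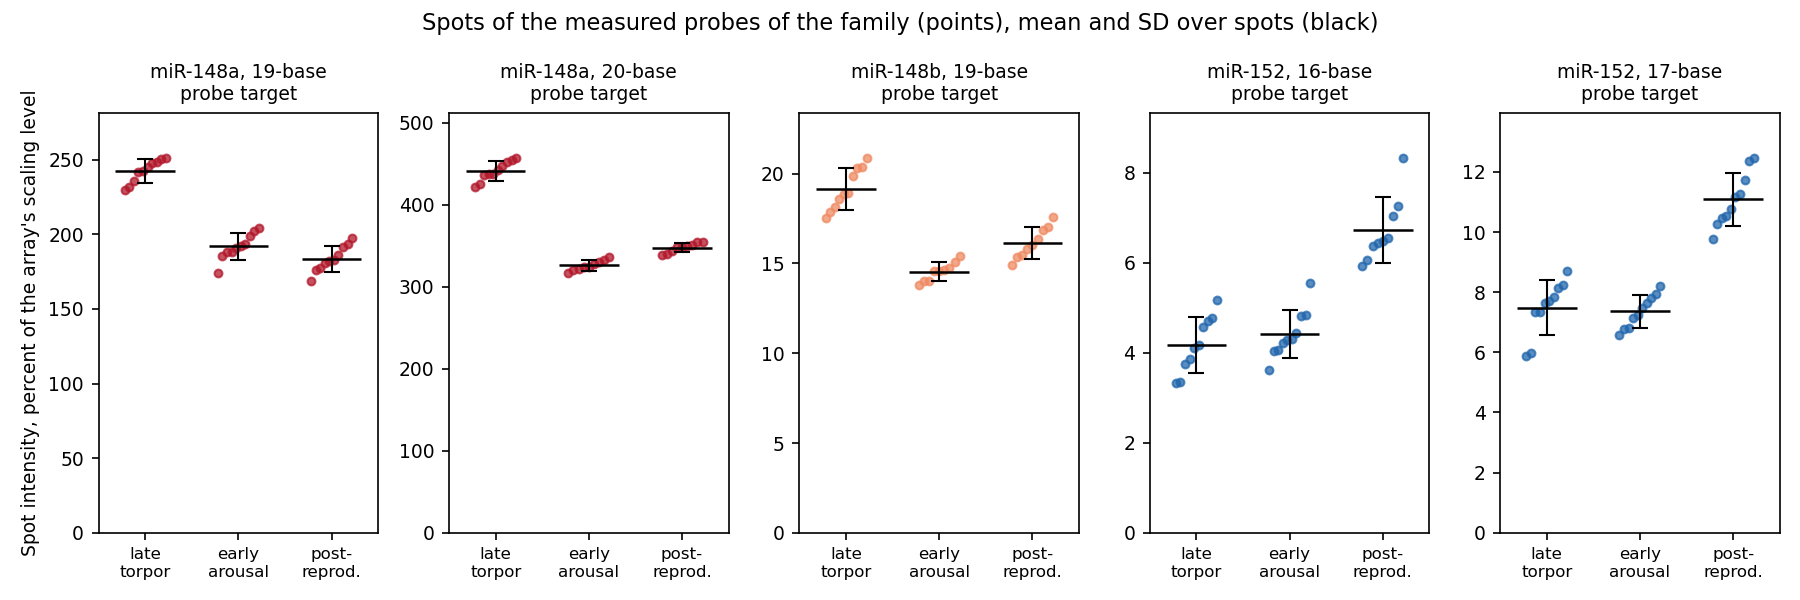
Each panel plots 1 measured probe of the family, with the spots of each array as points and their mean and SD in black, in percent of the array's scaling level on a linear axis from 0. Both miR-148a probes were highest in late torpor (means of 242% and 441%), the miR-148b probe was highest in late torpor (19.1%), and both miR-152 probes were highest in post-reproduction (6.72% and 11.1%).

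miR-148b was measured with 1 of its 2 probes. The probe with a target of 19 bases averaged 66.8 ± 4.04 intensity units in late torpor, 51.0 ± 1.83 in early arousal and 64.4 ± 3.54 in post-reproduction (SD over 10, 9 and 9 kept spots). Before scaling, the spots of late torpor (61.2 to 72.9) and post-reproduction (59.4 to 70.1) overlapped, and those of early arousal (48.4 to 53.9) lay below both. The probe with a target of 18 bases was not detected on any array, with means of 7.10, 5.92 and 7.27 intensity units and 2 of 9, 0 of 9 and 1 of 10 kept spots well above background. The scaled difference of the detected probe was 0.24 ± 0.038, and scaled spots of late torpor (17.5% to 20.9%) and post-reproduction (14.9% to 17.6%) still overlapped. It was 0.0088 with strict detection, and the sign turned with the total signals on their own scaling level (-0.077) and with the unsubstituted scaling (-0.15). The viral entry mghv-miR-M1-2 was at 0.28 ± 0.082.

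**Figure D2:**
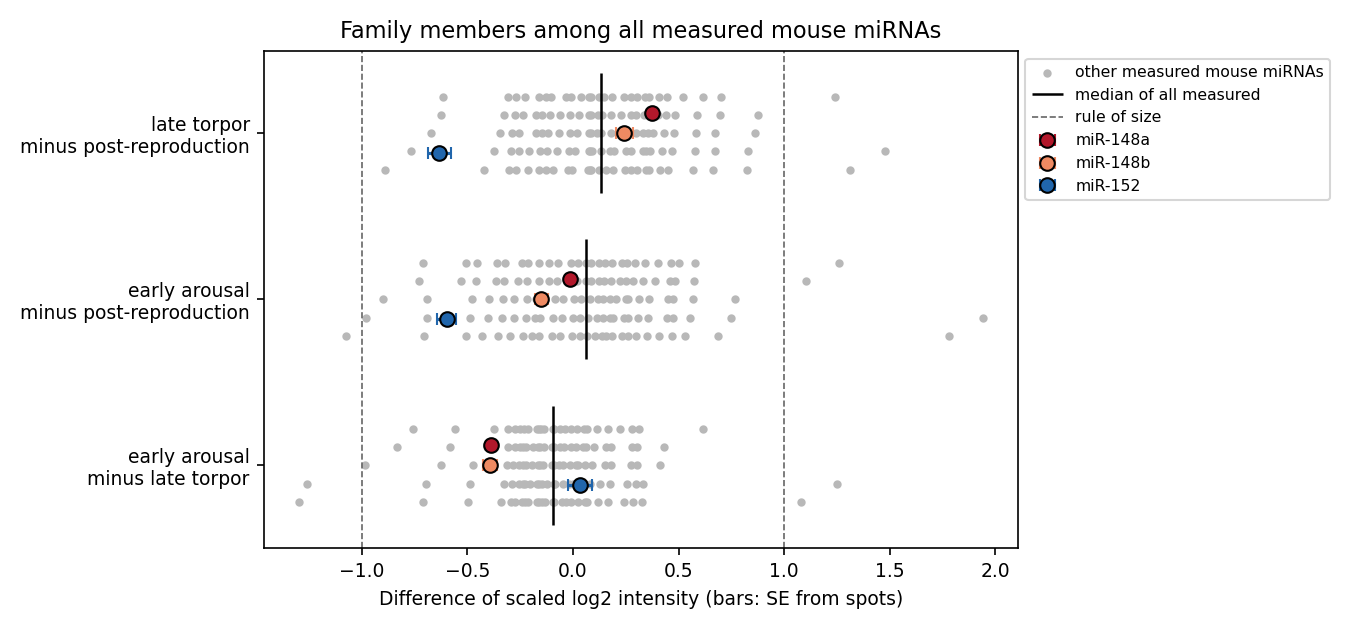
Scaled log2 differences of the 3 members (coloured, bars give the SE from spots) among the other measured mouse miRNAs (grey) in each comparison, with the median of all 135 as a line and the rule of size dashed. miR-152 lies toward the low end in the comparisons with post-reproduction (-0.63 and -0.60), and miR-148a and miR-148b lie together at -0.39 in early arousal minus late torpor.

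The second comparison set early arousal against post-reproduction. miR-152 was 1.51-fold lower in early arousal (95% interval from spots 1.43 to 1.61), close to its value in late torpor. Its difference was -0.60 ± 0.045, with -0.61 ± 0.074 for the shorter and -0.59 ± 0.050 for the longer target, and it held place 9 from the lowest of the 135. Among the 68 dimmer measured miRNAs it held place 8. Over the alternatives it ranged from -0.97 with all probes in the scaling to -0.11 with normexp. miR-148b was 1.11-fold lower (1.06 to 1.16), at -0.15 ± 0.031, with a range from -0.52 with all probes in the scaling to -0.012 with normexp. The viral entry mghv-miR-M1-2 was at -0.10 ± 0.072, with its probes on both sides of 0, from -0.34 to 0.19.

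miR-148a had a difference of -0.014 ± 0.016, a ratio of 0.990 with an interval from spots of 0.968 to 1.01. Its probes lay on opposite sides, at 0.064 ± 0.030 for the shorter and -0.093 ± 0.012 for the longer target, and over the alternatives their mean ranged from -0.39 with all probes in the scaling, through -0.28 with strict detection and -0.20 without scaling, to 0.027 with the median as the scaling level. Again 0 of the 3 members passed the rule of size, against 3.7% of the measured miRNAs. The late torpor and early arousal comparisons share the post-reproduction array, so their values for miR-152 are not separate evidence.

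The third comparison, early arousal against late torpor, lies within hibernation. The post-reproduction array enters it through the scaling and the choice of measured miRNAs. miR-148a and miR-148b were lower in early arousal by similar amounts, though with normexp they were at -0.36 and -0.19. miR-152 differed by less than its spot error. miR-148a was 1.31-fold lower (95% interval from spots 1.28 to 1.34), with a difference of -0.39 ± 0.015, and its probes were at -0.34 ± 0.026 and -0.44 ± 0.015. miR-148b was 1.31-fold lower too (1.26 to 1.37), at -0.39 ± 0.032, and its scaled spots did not overlap between early arousal (13.8% to 15.4%) and late torpor (17.5% to 20.9%). They held places 16 and 15 from the lowest of the 135, whose median was -0.094. Both stayed below 0 under every alternative run, between -0.64 and -0.18 for miR-148a and between -0.64 and -0.19 for miR-148b. miR-152 was at 0.034 ± 0.055, and its sign turned under 4 of 11 alternatives. 0 of the 3 passed the rule of size, against 2.96% of the measured miRNAs, and mghv-miR-M1-2 was at -0.38 ± 0.078.

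Differences between members do not depend on a shift of a whole array. Late torpor minus post-reproduction, miR-152 lay 1.01 log2 units below miR-148a (-1.01 ± 0.057, 95% interval from spots -1.12 to -0.89) and 0.88 below miR-148b (-0.88 ± 0.067). Early arousal minus post-reproduction, these gaps were -0.58 ± 0.047 and -0.45 ± 0.054. Between early arousal and late torpor they had the other sign, 0.42 ± 0.057 against miR-148a and 0.43 ± 0.064 against miR-148b. None of these 6 gaps changed sign under the alternatives run, but normexp brought them closer to 0. With it, the gaps to miR-148a and miR-148b were -0.42 and -0.26 in late torpor minus post-reproduction, -0.086 and -0.10 in early arousal minus post-reproduction, and 0.33 and 0.16 in early arousal minus late torpor. miR-148b and miR-148a lay closer together, at -0.13 ± 0.041, -0.14 ± 0.035 and -0.0068 ± 0.036 in the 3 comparisons. With normexp these gaps were -0.16, 0.015 and 0.17.

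Across scalings, the median of all measured miRNAs lay between -0.26 and 0.13 in late torpor minus post-reproduction, between -0.31 and 0.10 in early arousal minus post-reproduction, and between -0.34 and 0.12 in early arousal minus late torpor. Relative to that median, miR-152 was at -0.76 in late torpor and -0.66 in early arousal, each minus post-reproduction. miR-148a was at 0.24 and -0.077 and miR-148b at 0.11 and -0.21 in the same comparisons. Early arousal minus late torpor, the values were -0.29 for miR-148a, -0.30 for miR-148b and 0.13 for miR-152. By construction these values are the same under a scaling that shifts whole arrays. Under the 7 other alternatives that apply to all members no member changed sign, and miR-152 came nearest to 0 with normexp, at -0.23 for late torpor and -0.20 for early arousal.

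**Figure D3:**
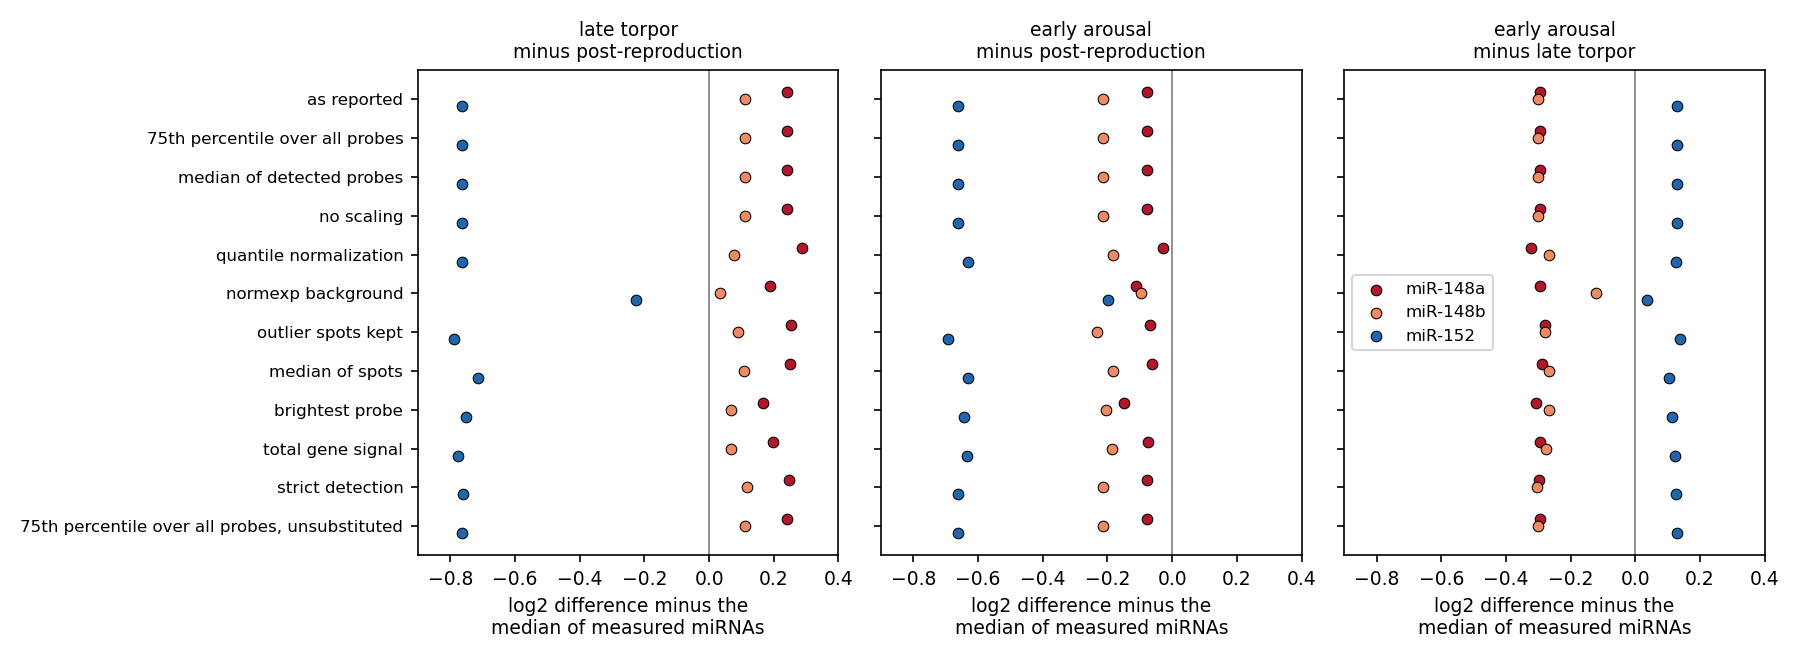
Log2 difference of each member minus the median of the measured miRNAs, in each comparison (panels) and under each way of processing (rows), where a shift of whole arrays gives the same values by construction. miR-152 stays left of 0 in both comparisons with post-reproduction and comes nearest to 0 with normexp (-0.23 and -0.20), and miR-148a and miR-148b stay left of 0 in early arousal minus late torpor.

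Other miRNAs that bear on the same targets were taken from lists drawn up with earlier results of these data known. Of 10 other miRNAs reported to repress DNA methyltransferases, 8 were measured, among them the miR-29 family, which targets the de novo enzymes. In late torpor minus post-reproduction, 6 of the 8 lay above 0 and 2 below (88 and 47 over all 135). The median of the 8 was 0.20 (0.13 over all measured), from -0.21 for miR-185 to 0.36 for miR-29a. Early arousal minus post-reproduction, 5 were above and 3 below (75 and 60 over all 135). The median of the 8 was 0.036 (0.062 over all measured), from -0.36 for miR-185 to 0.36 for miR-101a. Between early arousal and late torpor, 7 of the 8 were below 0 (88 of all 135). The median of the 8 was -0.095 (-0.094 over all measured), from -0.24 for miR-29c to 0.058 for miR-101a. None passed the rule of size in any comparison.

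Of 10 listed miRNAs reported to repress the LDL receptor or ABCA1, 9 were on the array and 7 were measured. In late torpor minus post-reproduction 5 were above 0 and 2 below (88 and 47 over all 135), with a median of 0.26 (0.13 over all measured), from -0.26 for miR-27a to 1.48 for miR-144, the one member past the rule of size. In early arousal minus post-reproduction 4 were above and 3 below (75 and 60 over all 135), with a median of 0.031 (0.062 over all measured), from -0.53 for miR-27a to 0.18 for miR-144. In early arousal minus late torpor 7 of 7 were below 0 (88 of all 135), with a median of -0.25 (-0.094 over all measured), from -1.30 for miR-144 to -0.085 for miR-27b, and miR-144 was again the one past the rule. miR-144 is also a red blood cell miRNA, and miR-185 stands in this list and in that of the DNA methyltransferases.

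The miR-130 and miR-301 miRNAs carry nearly the family's seed, shifted by a base. Of the 5 such entries on the array, miR-130a was measured, at 0.44 ± 0.023 for late torpor and 0.34 ± 0.021 for early arousal, each minus post-reproduction, and at -0.10 ± 0.018 for early arousal minus late torpor. Of the strands that come from the other arm of the family's hairpins, miR-148a* was on the array and was not detected at any stage, with at most 9.83 intensity units for the mean of a probe, in early arousal.

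The measured miRNAs with the pattern most like that of each member were found by the distance between their 2 differences from post-reproduction, over the 3 arrays. For miR-152 these were miR-186 (distance 0.091, differences of -0.63 in late torpor and -0.69 in early arousal), miR-320 (0.10, at -0.67 and -0.51), which is made without the enzyme Drosha, and miR-222 (0.24, at -0.42 and -0.71), found in endothelial cells among others. The nearest other family member lay at 0.98 from miR-152. For miR-148a they were miR-33 (0.12), a repressor of ABCA1 encoded in a sterol regulator gene, miR-29c (0.13) and miR-125a-5p (0.13), and for miR-148b they were miR-338-3p (0.076), miR-378* (0.079) and miR-99a (0.086). miR-148a and miR-148b lay 0.19 apart.

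**Figure D4:**
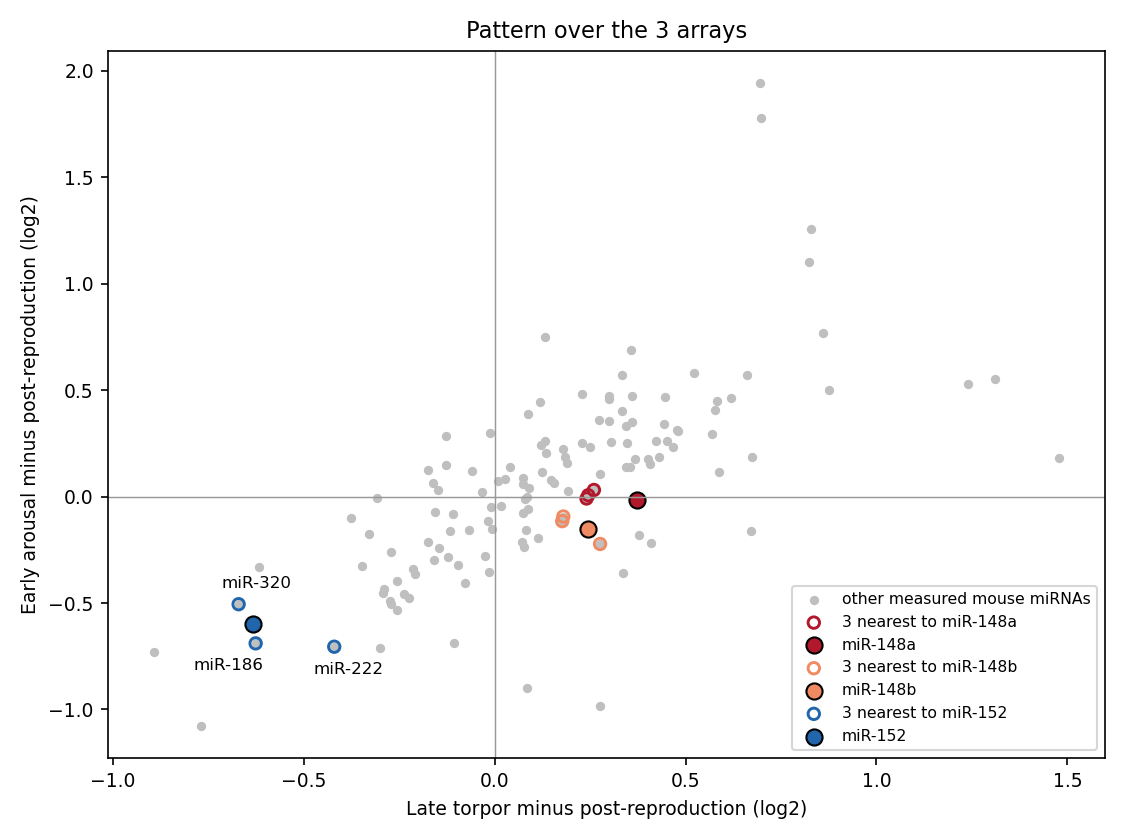
Each point is a measured mouse miRNA, with its log2 difference of late torpor (x axis) and of early arousal (y axis) from post-reproduction, the 3 members filled and their 3 nearest entries ringed. miR-152 (-0.63, -0.60) sits at the lower left with miR-186, miR-320 and miR-222, away from miR-148a (0.37, -0.014) and miR-148b (0.24, -0.15).

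Bulk RNA does not tell fewer cells of a type from less RNA per cell, and markers of other cell types also differed between the pools. All 3 red blood cell miRNAs were higher in late torpor than in post-reproduction past the rule of size, and their scaled intensities summed to 884% of the scaling level in late torpor, 535% in early arousal and 372% in post-reproduction. Leukocyte miRNAs, 6 of 7 measured, summed to 172%, 125% and 128% in the same order. Of the 6, 5 were higher in late torpor than in post-reproduction (88 of all 135), and miR-146a was at -0.27. All 4 endothelial miRNAs were measured, with sums of 364%, 334% and 318%, but they differed in direction. In late torpor minus post-reproduction, miR-126-3p and miR-126-5p were at 0.35 and 0.27, and miR-221 and miR-222 at -0.23 and -0.42. In early arousal minus post-reproduction these values were 0.25, 0.36, -0.48 and -0.71. The 5 measured mesenchymal miRNAs summed to 92.1%, 80.7% and 92.8%. Their median differences were -0.016 for late torpor and -0.013 for early arousal, each minus post-reproduction. The 5 measured hepatocyte miRNAs summed to 11838%, 10463% and 9423%, with medians of 0.23 and 0.16 in the same comparisons. All 5 were above 0 in both (88 and 75 of all 135). The part of blood cells or of hepatocytes in the differences of miR-148a and miR-148b was not tested.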

How the data were processed

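Total liver RNA, pooled by stage, was read on 3 one-colour arrays. Per the file headers and the submitters' processing notes, the authors used Agilent Feature Extraction 9.5.3.1. The deposited intensity is the spot signal after subtraction of a fitted spatial background, with no step between arrays, and the deposited series table held the same value at all 12493 spots per array. The other deposited values are detection and outlier flags of the same program, per the file headers.

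Control spots and spots flagged as outliers (280, 398 and 317 in late torpor, early arousal and post-reproduction) were left out. A spot at or below 0 was replaced by the dimmest spot flagged well above background on its array. The log2 intensities of a probe's spots were averaged. A probe was detected where over 50% of its kept spots were well above background, and measured miRNAs average the probes detected on all 3 arrays. No spot of a miRNA entry was saturated. Standard errors and 95% intervals come from spots. The number of arrays limits the precision. The calculation was tested on simulated data with differences larger than those of the members. Recovery of differences of the members' size was not tested. Python 3.11.15 and limma 3.58.1 (normexp) were used.

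Members and lists were chosen with earlier results of these data known. Named were all members, the 3 nearest entries of each, and the extremes of the lists of related miRNAs. No sequences are printed, since the files used here hold none.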

Additional observations from a re-analysis of the deposited data

How the results depend on the processing

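No paired analysis was possible because each stage had 1 array. There were 10 alternatives, and 2 more chosen after the data were seen, which changed the scaling, the background, the outlier spots, the summary of spots and probes, or the detection rule. The scaling on all probes without substitution gave -0.018 for miR-148a and -0.15 for miR-148b in late torpor minus post-reproduction, and there miR-152 passed the rule of size at -1.02, as 1 of 3 members. Also in that comparison, the total signal, which also changed the scaling level, gave -0.077 for miR-148b. The median as scaling level gave 0.027 for miR-148a in early arousal minus post-reproduction. miR-152 in early arousal minus late torpor was -0.21 where the scaling used all probes, -0.032 with normexp, -0.019 with the median of spots and -0.016 with the brightest probe. The gap of miR-148b to miR-148a in early arousal minus late torpor was 0.057 after quantile normalization, 0.17 with normexp, 0.022 with the median of spots, 0.042 with the brightest probe, 0.018 with the total signal and 0.064 with both miR-148b probes, and in early arousal minus post-reproduction it was 0.015 with normexp. The number of measured miRNAs past the rule was 3 in late torpor minus post-reproduction (1 with normexp, 5 with strict detection, 7 with the unsubstituted scaling), 5 in early arousal minus post-reproduction (10 with all probes, 2 with normexp) and 4 in early arousal minus late torpor (0 with normexp). Normexp adds 50 units to each signal, which by construction shrinks differences of dim probes such as those of miR-152. Of 102 values of the members' differences under alternatives, 93 kept their direction and side of the rule, 1 came to pass it and 8 changed sign. The gaps between members have no rule. Intervals from spots leave out the spread between arrays, which 1 array per stage cannot give.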

Other observations

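The scanner program's own total signal per miRNA, before any scaling between arrays, was 1709 units for miR-148a in late torpor, 1289 in early arousal and 1512 in post-reproduction. For miR-148b it was 52.9, 40.4 and 51.2 units, and for miR-152 it was 29.1, 29.3 and 50.7 units in the same order. Without scaling, miR-148b thus had nearly the same total in late torpor and post-reproduction.

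The viral entry mghv-miR-M1-2, with differences of 0.28, -0.10 and -0.38 in the 3 comparisons, followed a course over the arrays like that of miR-148b (0.24, -0.15 and -0.39). Its probes differed in sign in early arousal minus post-reproduction, from -0.34 to 0.19. The values of miR-148a, 0.37, -0.014 and -0.39, had the same signs as those of the viral entry. The values of miR-152 were -0.63, -0.60 and 0.034.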
